A study of Homo sapiens with 6 samples.

Results

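The data described here are the RNA levels of 8 transcription factors that control the epithelial-to-mesenchymal transition (EMT): ZEB1, ZEB2, SNAI1, SNAI2, TCF3, TCF4, KLF4 and GRHL2. They were taken from the deposited count table as all transcripts that GENCODE v29 assigns to these 8 symbols, and they are 8 of the 18768 genes with counts. Transfections were made in HCT116, a human colorectal carcinoma cell line grown in DMEM with fetal bovine serum. A short interfering RNA against the long non-coding RNA AC010789.1 was given in 3 samples (si-AC010789.1) and a negative control siRNA in 3 (siRNA-NC). The labels of all 6 name no other allele or treatment. The study names Lipofectamine for its transfections and penicillin-streptomycin in its culture medium. The study had proposed that AC010789.1 binds the microRNA miR-432-3p and that ZEB1 is a target of this microRNA, so the comparison asks what silencing AC010789.1 does to ZEB1 and to the factors that act beside it. The study states that the knockdown was checked in the sequenced samples. AC010789.1 itself was not analysed here.

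In EMT, epithelial cells loosen their junctions and gain the ability to migrate. ZEB1, ZEB2, SNAI1 and SNAI2 are zinc finger proteins that bind E-box sequences and repress epithelial genes such as CDH1, which encodes E-cadherin. TCF3 and TCF4 encode the basic helix-loop-helix E proteins E2A and E2-2, which bind E-boxes as dimers and can also repress CDH1. KLF4 and GRHL2 act on the other side: both are known to maintain the epithelial state, and GRHL2 and ZEB1 repress each other. The miR-200 microRNAs repress ZEB1 and ZEB2 through several sites in their 3′ UTRs, and ZEB1 and ZEB2 in turn repress the miR-200 genes.

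Library totals ran from 11277222 to 13443866 counts over 98886 Ensembl transcripts, and 98803 of these transcripts matched the annotation. Levels are given as counts per 1000000 counts (CPM) scaled by TMM factors, and comparisons between genes as transcripts per 1000000 (TPM), which corrects for transcript length. The libraries carried few of the markers of a colorectal epithelium that their label would call for. Of 9 such markers, KRT19, VIL1, KRT20 and CDX2 were looked up and were not among the 18768 genes with counts used here. CDH17 had 0 to 2 counts per library, CDH1 8 to 13 and EPCAM 35 to 68. Together these 3 genes summed to 3.81 to 6.64 CPM. The simple epithelial keratins KRT8 and KRT18 were abundant, so that all 5 counted markers summed to 985 to 1229 CPM in siRNA-NC versus 801 to 1042 in si-AC010789.1. VIM, the mesenchymal intermediate filament vimentin, lay at 831 ± 73.4 CPM in siRNA-NC versus 727 ± 89.2 in si-AC010789.1 (SD, n = 3 each). Of 5 markers of other cell types that were looked up, only COL1A1 was among the genes with counts, at 37.8 to 48.0 CPM. The part of the cells' identity in the results was not tested, and the libraries are called HCT116 only by their label.

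Some microRNAs known to regulate EMT factors, and the one named by the study, are shown first, since their matches are spread unequally over the 8 genes. MicroRNAs themselves were not measured. The mature sequences are from RefSeq (GRCh38.p14), written 5′ to 3′ with the seed, bases 2 to 8, in capitals.
miR-432-3p: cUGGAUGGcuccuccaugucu
miR-200a-3p: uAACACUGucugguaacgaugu
miR-141-3p: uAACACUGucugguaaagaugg
miR-200b-3p: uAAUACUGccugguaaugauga
miR-200c-3p: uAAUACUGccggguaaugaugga
miR-429: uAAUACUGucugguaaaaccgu
miR-34a-5p: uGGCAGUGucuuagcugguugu
miR-145-5p: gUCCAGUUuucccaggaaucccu
miR-200a-3p and miR-141-3p share the seed AACACUG, and miR-200b-3p, miR-200c-3p and miR-429 share AAUACUG.

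A match was a stretch of a 3′ UTR complementary to seed bases 2 to 8, or to bases 2 to 7 followed by A, over all annotated coding transcripts of a gene. For miR-432-3p the letters searched were CCATCCA and CATCCAA, on the transcribed strand only. ZEB1 carried 1 such match, TCF3 1, TCF4 2 and GRHL2 1. No match of these letters lay in the 3′ UTRs of ZEB2, SNAI1, SNAI2 or KLF4. Among the longest 3′ UTRs of 19124 genes, 16.2% held a miR-432-3p match, 21.5% a match of the AAUACUG seed (CAGTATT or AGTATTA) and 23.3% a match of the AACACUG seed (CAGTGTT or AGTGTTA). These shares cover 1 3′ UTR per gene, whereas the factors were searched over all their coding transcripts. Longer 3′ UTRs offer more room for matches, and the longest of each factor ran from 830 bases in SNAI1 to 5704 in TCF4.

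ZEB1 and ZEB2 held the most matches of the miR-200 family among the 8. ZEB1 held 6 matches of the AAUACUG seed and 3 of the AACACUG seed, and ZEB2 held 6 and 5. SNAI2 held 2 and 1, TCF4 2 and 3, KLF4 1 of the AAUACUG seed and GRHL2 1 of the AACACUG seed. Not all of these matches lie on transcripts that were counted. The only counted SNAI2 transcript, ENST00000020945, held 1 match of the AAUACUG seed and none of the AACACUG seed. For ZEB2, 1 match of the AACACUG seed lay only on transcripts that were not counted. SNAI1 and TCF3 held neither. The microRNAs miR-34a-5p and miR-145-5p are known regulators of SNAI1 and KLF4. For miR-34a-5p the letters were CACTGCC and ACTGCCA, present in 21.2% of the longest 3′ UTRs, with 1 match each in ZEB1, SNAI1 and KLF4 and 2 in GRHL2. For miR-145-5p they were AACTGGA and ACTGGAA, present in 21.1%, with 2 matches each in ZEB2 and TCF4 and 1 in KLF4. Also searched were miR-203a-3p, matched in 29.1% of the longest 3′ UTRs, and miR-205-5p, matched in 21.2%. For miR-203a-3p TCF4 held 5 matches, ZEB1 4, ZEB2 3, SNAI2 2 and SNAI1 1. For miR-205-5p ZEB2 held 3, TCF4 2, and ZEB1 and TCF3 1 each.

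Some of these sites are printed below with the match in capitals, as they read on the transcribed strand of GRCh38. They are the miR-432-3p matches of ZEB1 and TCF3, 1 match of the AAUACUG seed for each ZEB gene, and the miR-34a-5p matches of SNAI1 and KLF4.
ZEB1, miR-432-3p, chr10:31528173-31528200, plus strand: taacccgccttCATCCAAtgtgtggcct
TCF3, miR-432-3p, chr19:1610025-1610052, minus strand: ccctgggatcCCATCCAgttccacacga
ZEB1, miR-200b-3p, chr10:31527623-31527650, plus strand: tttatcttatCAGTATTAtcactcttat
ZEB2, miR-200b-3p, chr2:144388405-144388432, minus strand: ctgtagtgtaCAGTATTAtagttcttca
SNAI1, miR-34a-5p, chr20:49988132-49988159, plus strand: acatccttctCACTGCCAtggaattccc
KLF4, miR-34a-5p, chr9:107485709-107485736, minus strand: atatgacccaCACTGCCAgaagagaatt

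Of the 8 factors 7 had enough counts to be tested. None passed the adjusted threshold of 0.05 in edgeR's quasi-likelihood test, which called 130 of 13764 genes or 0.944%. At an unadjusted p under 0.05 there were 3 of the 7, namely ZEB1, TCF3 and KLF4, where 17.2% of all tested genes passed. The study's methods name a P under 0.05 with a log2 fold change beyond 1, from Cuffdiff, and do not say whether P was adjusted. Applied here to the unadjusted p of edgeR, these criteria were met by 0 of the 7 and by 0.777% of all genes. The CPM of the 2 groups did not overlap for TCF3, TCF4 and KLF4, and it did not overlap for 25.1% of all genes. DESeq2 called 1 of the 7, TCF3, where it called 3.79% of all genes. It gave no adjusted p for ZEB2, TCF4 and 3741 of the 13764 genes, which are counted here as not called. Compared with siRNA-NC, 3 factors were on the higher side in si-AC010789.1 and 4 on the lower. The median log2 fold change was −0.05 for the 7 and −0.00059 for all genes, and the median size of the log2 fold change was 0.31 for the 7 and 0.14 for all genes. The study describes the libraries of a group as biological repeats from cells of different generations, while the labels do not say which generation a library had, so generation was not entered in the fits. In bulk RNA, fewer cells of a type and less RNA per cell cannot be told apart.

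**Figure D1:**
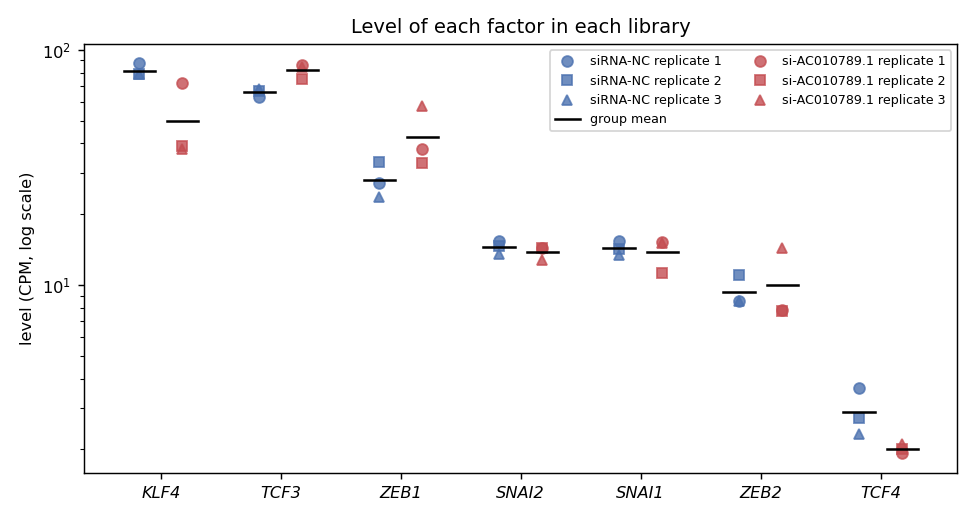
Level of the 7 tested factors in each of the 6 libraries, in CPM on a log axis, ordered by the siRNA-NC mean. Points are libraries, with the replicate number given by the symbol, and black lines are group means. KLF4 was lower in the si-AC010789.1 libraries (37.9 to 72.5 CPM) than in the siRNA-NC libraries (78.5 to 87.4), TCF3 was higher, and SNAI1 and SNAI2 lay at 11.2 to 15.4 CPM throughout.

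ZEB1 (ENSG00000148516.21, chr10:31318495-31529814, plus strand), the factor that the study placed downstream of miR-432-3p, measured 27.1, 33.4 and 23.6 CPM in the siRNA-NC libraries. The si-AC010789.1 libraries measured 37.9, 32.8 and 57.5. All si-AC010789.1 values lay above 2 of the siRNA-NC values, but the second si-AC010789.1 library was just below the second siRNA-NC library, so the groups overlapped. The means were 28.1 ± 4.95 and 42.7 ± 13 CPM (SD, n = 3 each), which gave a log2 fold change of 0.61 (SE 0.23, 95% interval 0.05 to 1.17) and an adjusted p of 0.259. Without the third si-AC010789.1 library it was 0.33. The antisense gene ZEB1-AS1, which lies head to head with ZEB1 and whose reads cannot be told from those of ZEB1 where the genes overlap if strand was not used in counting, had 66, 51 and 3 counts in siRNA-NC versus 51, 4 and 3 in si-AC010789.1.

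By qRT-PCR the study reported lower ZEB1 mRNA after AC010789.1 silencing, and by Western blot lower ZEB1 protein in stable knockdown cells. Those directions are opposite to that of the ZEB1 mean here. It also states that genes differing within a group were excluded before ZEB1 was singled out. The study's supplement gives the primer pair of the qRT-PCR, and the pair shows which of the ZEB1 counts that assay would read.
forward: gcacaaccaagtgcagaaga
reverse: gcctggttcaggagaagatg
On GENCODE v29 transcripts it gives 1 product of 141 bases within ZEB1, at chr10:31521145-31521285 on GRCh38. Of 10 annotated transcripts with the product 7 were counted, and these held 95.8% of the ZEB1 counts. Their summed level was 25.8, 31.3 and 21.9 CPM in siRNA-NC versus 36.9, 32.4 and 55.4 in si-AC010789.1, which did not overlap. In an exact two-sided permutation test this gave p = 0.1, the smallest value that 3 against 3 libraries can give. The groups also did not overlap for 25.1% of all genes. The gap here was narrow, between 31.3 and 32.4 CPM, and the sum of all ZEB1 transcripts did overlap between the groups. The level also depends on how reads were divided among transcripts.

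ZEB2 (ENSG00000169554.19, chr2:144364364-144524583, minus strand), the paralogue of ZEB1, measured 8.51, 11 and 8.55 CPM in siRNA-NC. In si-AC010789.1 it measured 7.86, 7.75 and 14.4. One si-AC010789.1 library was the highest of the 6 and the other 2 were the lowest. The log2 fold change was 0.10 (SE 0.27, 95% interval −0.56 to 0.76, adjusted p = 0.895), and it turned to −0.26 without the third si-AC010789.1 library. That library was the highest for both ZEB genes. The ratio of ZEB1 to ZEB2 in TPM was 4.88, 2.33 and 2.38 in siRNA-NC versus 2.94, 3.46 and 4.07 in si-AC010789.1.

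SNAI1 (ENSG00000124216.3, chr20:49982999-49988886, plus strand), which encodes Snail, measured 15.4, 14.2 and 13.4 CPM in siRNA-NC versus 15.2, 11.2 and 15.1 in si-AC010789.1. The log2 fold change was −0.05 (SE 0.15, 95% interval −0.40 to 0.30, adjusted p = 0.895). Only the second si-AC010789.1 library lay below the siRNA-NC libraries, and without it the log2 fold change was 0.08.

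SNAI2 (ENSG00000019549.11, chr8:48917604-48921740, minus strand), which encodes Slug, measured 15.3, 14.7 and 13.6 CPM in siRNA-NC versus 14.3, 14.4 and 12.7 in si-AC010789.1. It had a log2 fold change of −0.07 (SE 0.10, 95% interval −0.32 to 0.17, adjusted p = 0.760). In TPM, the ratio of SNAI1 to SNAI2 stayed between 0.927 and 1.41 over the 6 libraries. The intervals of both Snail factors exclude a doubling or a halving of the level and leave room for smaller shifts in either direction.

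TCF3 (ENSG00000071564.14, chr19:1609290-1652605, minus strand) measured 63.2, 66.5 and 68.3 CPM in siRNA-NC versus 85.9, 75.2 and 84.4 in si-AC010789.1. All 3 si-AC010789.1 libraries lay above all 3 siRNA-NC libraries. The means were 66.0 ± 2.61 and 81.8 ± 5.82 CPM (SD, n = 3 each), a log2 fold change of 0.31 (SE 0.07, 95% interval 0.13 to 0.49). The adjusted p was 0.114 in edgeR and 0.0429 in DESeq2. With 1 library left out, the log2 fold change ran from 0.27 to 0.37 and did not pass in edgeR.

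TCF4 (ENSG00000196628.16, chr18:55222331-55664787, minus strand), which encodes E2-2 and is not the Wnt effector of the same alias, was the lowest of the tested factors. It had 41, 36 and 31 counts in siRNA-NC versus 22, 25 and 26 in si-AC010789.1. In CPM these were 3.63, 2.71 and 2.33 against 1.92, 2.0 and 2.11, and the groups did not overlap. The log2 fold change was −0.52 (SE 0.23, 95% interval −1.07 to 0.04, adjusted p = 0.321). At such counts DESeq2 gave no adjusted p, nor did it for ZEB2. The 2 E protein genes thus lay on opposite sides. The ratio of TCF3 to TCF4 in TPM was 36.7, 18.5 and 22.2 in siRNA-NC versus 46.3, 93.8 and 99.6 in si-AC010789.1. This ratio depends on which TCF4 transcripts received its few counts, since TPM corrects for transcript length. In si-AC010789.1 the TPM of TCF4 was 1.56, 0.730 and 0.656, while its CPM was nearly level. The size of the ratio is therefore not read as a difference in level.

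KLF4 (ENSG00000136826.14, chr9:107484852-107490482, minus strand) showed the widest difference of the tested factors. It measured 87.4, 78.6 and 78.5 CPM in siRNA-NC versus 72.5, 38.9 and 37.9 in si-AC010789.1. The first si-AC010789.1 library was close to the siRNA-NC libraries and the other 2 were far below. The means were 81.5 ± 5.10 and 49.8 ± 19.7 CPM (SD, n = 3 each), and the log2 fold change was −0.71 (SE 0.25, 95% interval −1.32 to −0.10). Its adjusted p was 0.233 in edgeR and 0.0755 in DESeq2. Without the first si-AC010789.1 library the log2 fold change was −1.09 and the adjusted p 0.0229 in edgeR, in a fit that called 0.264% of all genes. Over the 6 fits with 1 library left out the adjusted p ran from 0.0229 to 0.430.

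GRHL2 (ENSG00000083307.11, chr8:101492432-101669726, plus strand), the grainyhead-like factor that opposes ZEB1 in epithelia, was close to undetected. It had 2, 0 and 0 counts in siRNA-NC versus 1, 0 and 0 in si-AC010789.1, all on ENST00000251808. A floor of 3 counts in a library corresponded to 0.223 to 0.266 CPM, so no fold is given. This floor covers counting error only.

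Exact two-sided permutation tests on the CPM of single factors gave p = 0.1 for TCF3, TCF4 and KLF4, the smallest value this design allows, p = 0.2 for ZEB1, and p = 0.4 to 1 for SNAI1, SNAI2, ZEB2 and GRHL2.

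**Figure D2:**
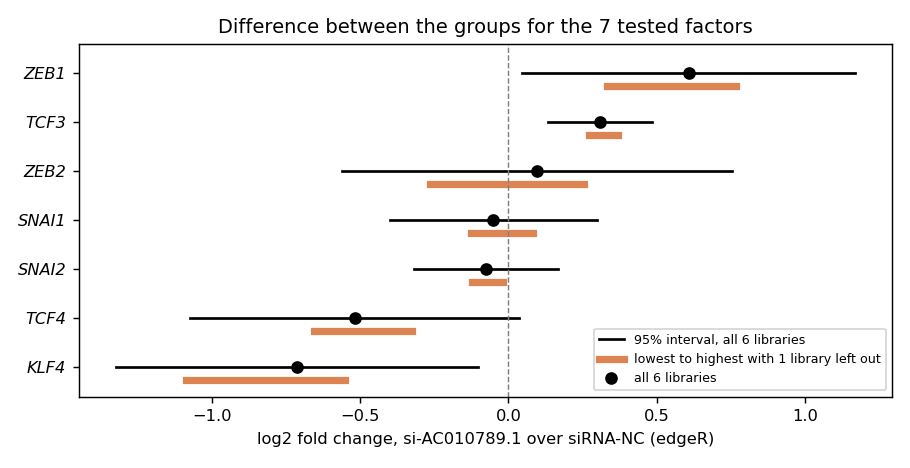
Log2 fold change of the 7 tested factors, si-AC010789.1 over siRNA-NC, from edgeR. Black points and lines give the estimate and its 95% interval over 6 libraries, and orange bars run from the lowest to the highest estimate with 1 library left out. The bars of ZEB2 (−0.26 to 0.25) and SNAI1 (−0.13 to 0.08) cross 0, and those of ZEB1, TCF3, SNAI2, TCF4 and KLF4 do not.

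Levels of different factors were compared in TPM. In siRNA-NC the order was KLF4 at 69.3 ± 15.6, TCF3 at 49.6 ± 2.99, SNAI1 at 16.4 ± 1.33, ZEB1 at 14.4 ± 3.57, SNAI2 at 14.0 ± 0.980, ZEB2 at 5.18 ± 2.66, TCF4 at 2.07 ± 0.646 and GRHL2 at 0.0219 ± 0.0379 (SD, n = 3 each). In si-AC010789.1 KLF4 was at 41.6 ± 13.6, TCF3 at 68.7 ± 3.56, ZEB1 at 20.5 ± 7.92, SNAI1 at 15.8 ± 2.57, SNAI2 at 13.3 ± 0.914, ZEB2 at 5.76 ± 1.37, TCF4 at 0.983 ± 0.504 and GRHL2 at 0.0107 ± 0.0185. KLF4 and TCF3 thus changed places, as did SNAI1 and ZEB1. The TPM of KLF4 and TCF3 did not overlap in either group. In siRNA-NC, ZEB1 overlapped with SNAI1 and SNAI2, and ZEB2 with TCF4. In si-AC010789.1, SNAI1 overlapped with ZEB1 and with SNAI2, and the other neighbours lay apart. The TPM of a gene depends on which of its transcripts received the counts.

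Below the sums, 66 transcripts of the 8 factors were counted, of which 45 are annotated as protein coding. Zero counts in at least 1 library were found for 38 of the 66. Enough counts for a test were present for 21, and 0 of them passed the adjusted threshold in edgeR, where 0.0135% of 44319 transcripts passed. At an unadjusted p under 0.05 there were 3, against 5.73% of all transcripts. The groups did not overlap for 2 of the 21 and for 14% of all. The study's criteria were met by 1 of the 21 and by 3.5% of all transcripts, and DESeq2 called 1 of the 21 and 1.52% of all. Both times this was ENST00000590684 of TCF3, which is also among the 3 and the 2. It reached the minimum count through the si-AC010789.1 libraries alone, so that it could be tested only because it was high there, and nothing is read from these counts. How the counting divided reads shared by transcripts is not given in the sources used here.

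**Figure D3:**
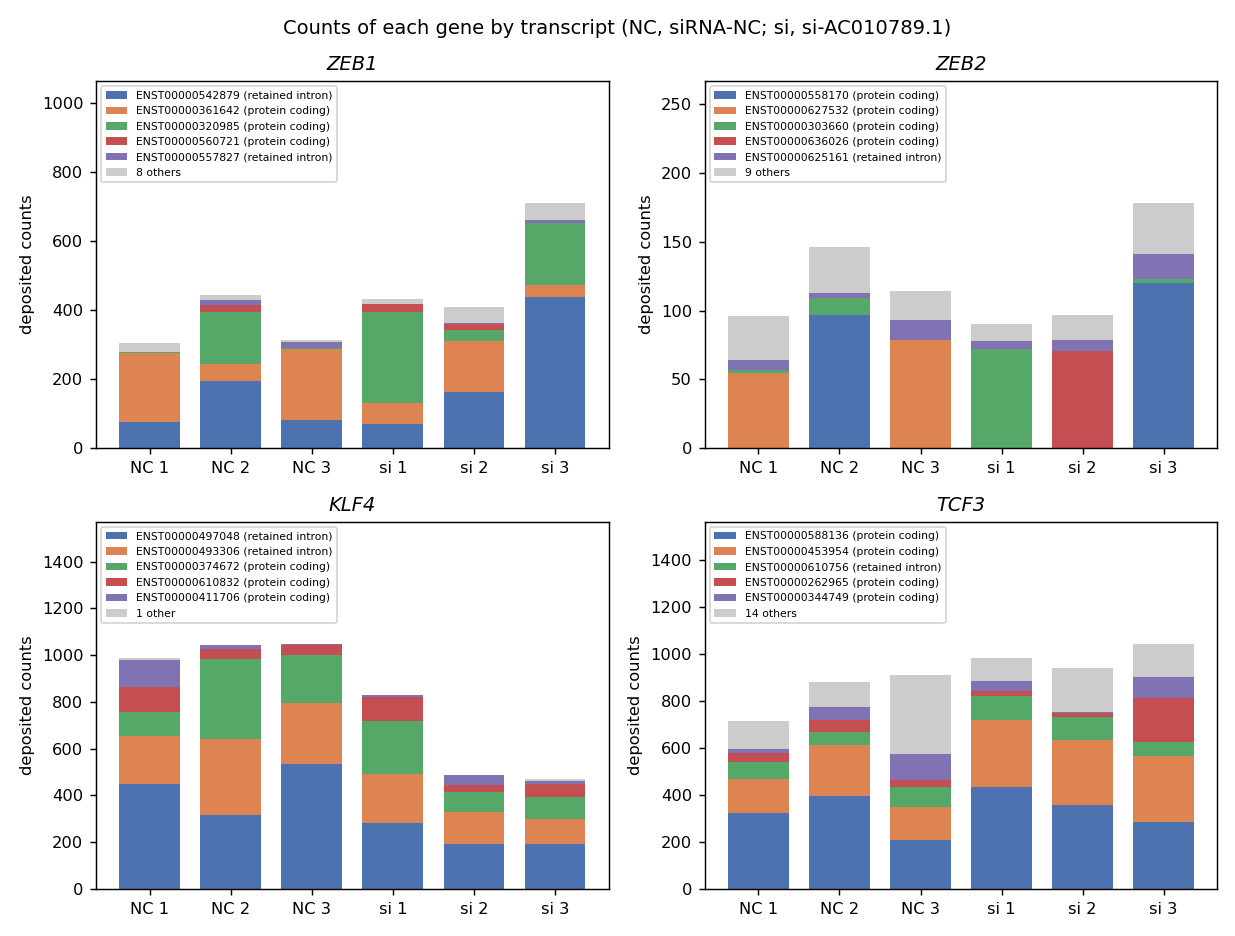
Deposited counts of ZEB1, ZEB2, KLF4 and TCF3 in each library, stacked by transcript, with the 5 transcripts of most counts coloured and the others in grey. NC 1 to 3 are the siRNA-NC libraries and si 1 to 3 the si-AC010789.1 libraries. The leading ZEB2 transcript differed between libraries (4 different ones), whereas ENST00000497048 led KLF4 in 5 of 6 libraries.

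The transcript that led the counts of ZEB1 was not the same in all libraries. ENST00000361642, a coding transcript of 1125 codons whose 3′ end lies farther downstream, had 200, 50 and 204 counts in siRNA-NC versus 62, 149 and 33 in si-AC010789.1. ENST00000320985, coding for 1124 codons and ending upstream of the former, had 3, 150 and 4 against 263, 31 and 181. Where one was high the other was low, within both groups. Their sum was 203, 200 and 208 counts in siRNA-NC versus 325, 180 and 214 in si-AC010789.1. As CPM the sum was 16.2 ± 1.55 and 20.0 ± 7.38 (SD, n = 3 each), with overlapping groups. This sum was formed after the values were seen.

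Both of these ZEB1 transcripts carry the miR-432-3p match printed above. ENST00000542879, which is annotated as a retained intron and does not carry it, had 77, 195 and 83 counts in siRNA-NC versus 69, 163 and 440 in si-AC010789.1. The third si-AC010789.1 library, the one with the highest ZEB1 level, thus held 62.0% of its ZEB1 counts on that transcript. Without that library its log2 fold change was 0.03, against 0.96 (SE 0.74, adjusted p = 0.969) over 6 libraries.

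Taking the 4 counted ZEB1 transcripts that contain the miR-432-3p match, the level was 19.0, 15.1 and 15.7 CPM in siRNA-NC versus 28.7, 14.7 and 19.7 in si-AC010789.1. The 9 without it measured 8.15, 18.3 and 7.95 against 9.17, 18.1 and 37.8 CPM. The groups overlapped in both classes. From coding transcripts alone, the log2 fold change of ZEB1 was 0.31 (adjusted p = 0.658) in place of 0.61.

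ZEB2 had no transcript with enough counts for a test. ENST00000627532, of 9541 bases and with the long 3′ UTR that holds the miR-200 matches, had 55, 0 and 79 counts in siRNA-NC versus 0 in each si-AC010789.1 library. ENST00000558170, which encodes the same number of codons (1214) in 4012 bases, had 0, 97 and 0 against 0, 0 and 120. ENST00000303660 had 2, 12 and 0 against 72, 0 and 3. Outside the rule for named transcripts and chosen after its values were seen, ENST00000636026 had 71 counts in the second si-AC010789.1 library and 0 in the other 5. In each library 1 transcript thus held 57.3% to 80% of the ZEB2 counts, and 4 different transcripts took that place. The 6 counted transcripts with the miR-200b-3p match printed above summed to 7.53, 1.21 and 6.23 CPM in siRNA-NC versus 0.175, 6.23 and 2.59 in si-AC010789.1. The coefficient of variation within groups was 29% for the gene and 173% for its leading transcript, while for ZEB1 the values were 24.9% and 70.4%.

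KLF4 counts lay mostly on transcripts annotated as retained introns, which held 65.9% of the total. ENST00000497048 had 448, 317 and 533 counts in siRNA-NC versus 281, 190 and 191 in si-AC010789.1, and the groups did not overlap in counts but did in CPM. Its log2 fold change was −0.92 (SE 0.31, 95% interval −1.70 to −0.14, adjusted p = 0.818). ENST00000493306, also a retained intron, had 205, 323 and 261 against 209, 139 and 107. The coding transcript ENST00000374672, of 479 codons, had 102, 343 and 208 against 227, 86 and 96.

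The share of the gene held by each of these 3 KLF4 transcripts differed between the groups by less than its SD in siRNA-NC. It was 42.3 ± 10.6% and 37.9 ± 3.61% for ENST00000497048, and 21.0 ± 11.3% and 21.8 ± 4.98% for ENST00000374672. The 4 transcripts that contain the miR-34a-5p match printed above held 95.7% of the KLF4 counts and measured 76.6, 77.4 and 78.3 CPM in siRNA-NC versus 71.7, 35.5 and 36.4 in si-AC010789.1. From coding transcripts alone, the log2 fold change of KLF4 was −0.48 (adjusted p = 0.612) in place of −0.71.

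TCF3 was led by ENST00000588136, with 651 codons and 324, 396 and 210 counts in siRNA-NC against 433, 357 and 285 in si-AC010789.1. Its log2 fold change was 0.26 (SE 0.33, adjusted p = 0.992). ENST00000453954, of 679 codons, is 1 of 6 counted TCF3 transcripts with the miR-432-3p match printed above, which ENST00000588136 lacks. These 6 did not all lie on the same side. ENST00000453954 had 145, 216 and 138 counts against 284, 276 and 282. The si-AC010789.1 libraries were all above the siRNA-NC libraries, with a log2 fold change of 0.81 (SE 0.23, 95% interval 0.23 to 1.39, adjusted p = 0.726). It took 20.0 ± 4.68% of the TCF3 counts in siRNA-NC versus 28.4 ± 1.20% in si-AC010789.1.

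ENST00000590684, a partial coding transcript of 1313 bases, is named here after its values were seen. It had 2, 1 and 1 counts in siRNA-NC versus 17, 20 and 25 in si-AC010789.1, and made up 0.168 ± 0.0975% and 2.08 ± 0.338% of the TCF3 counts. Since the siRNA-NC libraries lay under the floor of 3 counts and the transcript entered the test through the other group, no fold and no test is given. With only coding transcripts summed, the log2 fold change of TCF3 was 0.29 (adjusted p = 0.236).

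Counts of TCF4 were too few to follow by transcript. ENST00000636400, a coding transcript of 647 codons that carries a miR-432-3p match, had 31, 1 and 12 counts in siRNA-NC versus 7, 17 and 4 in si-AC010789.1. ENST00000562680, a retained intron, had 4, 15 and 6 against 7, 4 and 19. SNAI1 and SNAI2 were each counted on a single transcript, ENST00000244050 and ENST00000020945, so that their sums do not depend on how reads were divided.

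Genes that act with these factors were described by 8 lists of 142 distinct genes, of which 120 were counted and 106 tested. None passed the adjusted threshold in edgeR, where the lowest adjusted p was 0.0659. At an unadjusted p under 0.05 there were 31 of the 106, where 17.2% of all tested genes passed. DESeq2 called 8, where it called 3.79% of all, with genes lacking an adjusted p counted as not called. Among the 8 were ETS1, ELF3, PAK1, TJP3, LLGL2, MUC1 and CYR61, which are named here after their values were seen. The groups did not overlap for 38 of the 106 and for 25.1% of all genes. There were 57 on the higher side and 49 on the lower, with a median log2 fold change of 0.04 and a median size of 0.17, against −0.00059 and 0.14 for all genes.

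Among 18 other EMT factors 13 were tested, 7 on the higher and 6 on the lower side, with a median log2 fold change of 0.14. SOX4, an SRY-related factor that promotes EMT, had the lowest value of this list. It had 1395, 1637 and 1790 counts in siRNA-NC against 537, 606 and 1378, or 127 ± 6.21 and 69.0 ± 36.9 CPM (adjusted p = 0.254). Without the third si-AC010789.1 library it passed the threshold, as did 0.0858% of all genes. YBX1, an RNA- and DNA-binding cold shock protein, was at 733 ± 19.9 and 807 ± 37.4 CPM (adjusted p = 0.229). ETS1, an ETS-family activator, was at 60.8 ± 3.29 and 47.9 ± 0.958 CPM (adjusted p = 0.0799 in edgeR and 0.0145 in DESeq2).

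Of 19 factors of the epithelial state 12 were counted and 9 tested, 3 on the higher and 6 on the lower side. Their median log2 fold change was −0.14. ELF3, an epithelium-specific ETS factor, was at 85.6 ± 7.73 CPM in siRNA-NC versus 65.0 ± 4.91 in si-AC010789.1, with no overlap (adjusted p = 0.110 in edgeR and 0.0216 in DESeq2). KLF5, a KLF4 relative of the intestinal crypt, was at 223 ± 15.1 and 203 ± 7.51 CPM (adjusted p = 0.322). OVOL2, EHF and the GRHL2 paralogue GRHL3 had 14 counts or fewer in each library.

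The list of corepressors of ZEB and Snail proteins also held the acetyltransferases EP300 and KAT2B, which are coactivators. All 20 genes were counted and tested, 13 on the higher side and 7 on the lower. Their median log2 fold change was 0.04. KDM1A, the histone demethylase recruited by Snail, was at 339 ± 21.9 and 301 ± 19.1 CPM (adjusted p = 0.273), and CHD4, the NuRD remodelling subunit, at 610 ± 9.78 and 561 ± 25 (adjusted p = 0.258). Of the ID proteins and helix-loop-helix partners that control the E proteins, 5 of 13 were tested, 3 on the higher and 2 on the lower side, with a median log2 fold change of 0.17. ID3, which sequesters E proteins, was at 40.2 ± 4.29 and 53.0 ± 7.52 CPM (adjusted p = 0.208), and TCF12, which encodes the related E protein HEB, at 57.1 ± 6.18 and 64.0 ± 5.65 (adjusted p = 0.486).

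All 20 genes that govern the stability of the EMT factors were tested, 10 on either side, with a median of 0.01. GSK3B, the kinase that marks Snail for degradation, was at 222 ± 15.7 and 238 ± 3.48 CPM (adjusted p = 0.435), and USP7, a deubiquitinase, at 276 ± 11.2 and 289 ± 3.28 (adjusted p = 0.481). PAK1, a kinase that phosphorylates Snail, was at 17.5 ± 1.02 and 11.5 ± 1.03 CPM, the lowest adjusted p of all lists at 0.0659 (0.0120 in DESeq2).

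Genes that ZEB and Snail proteins are known to repress numbered 32, with 25 tested, 13 on the higher side and 12 on the lower, and a median log2 fold change of 0.05. The desmosomal genes DSP and JUP were at 899 ± 1.90 and 875 ± 28.2 CPM (adjusted p = 0.659) and at 858 ± 27.2 and 814 ± 48.0 (adjusted p = 0.534). CDH1 stayed under the filter with 8, 9 and 9 counts against 10, 10 and 13. The junction gene TJP3 was at 12.8 ± 0.837 and 8.50 ± 0.424 CPM (DESeq2 adjusted p = 0.0313), the mucin MUC1 at 57.2 ± 4.91 and 43.6 ± 4.20 (0.0469), and the polarity gene LLGL2 at 121 ± 6.31 and 144 ± 3.09 (0.0405). In edgeR these 3 had adjusted p-values of 0.0698, 0.136 and 0.104.

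Of 18 mesenchymal genes 14 were tested, 9 on the higher and 5 on the lower side, with a median log2 fold change of 0.17. VIM had a log2 fold change of −0.19 (adjusted p = 0.398), and the integrin subunit gene ITGA5 was at 246 ± 15.3 and 244 ± 20.4 CPM (adjusted p = 0.949). The matricellular gene CYR61 was at 65.5 ± 4.86 and 82.8 ± 6.45 CPM, with an adjusted p of 0.133 in edgeR and 0.0465 in DESeq2. Of the 5 antisense and microRNA host genes, ZEB1-AS1 and SNAI3-AS1 were tested. SNAI3-AS1 had 7, 0 and 12 counts in siRNA-NC versus 6, 14 and 12 in si-AC010789.1 (adjusted p = 0.686). MIR200CHG, the host of miR-200c and miR-141, was looked up and was not among the genes with counts used here.

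**Figure D4:**
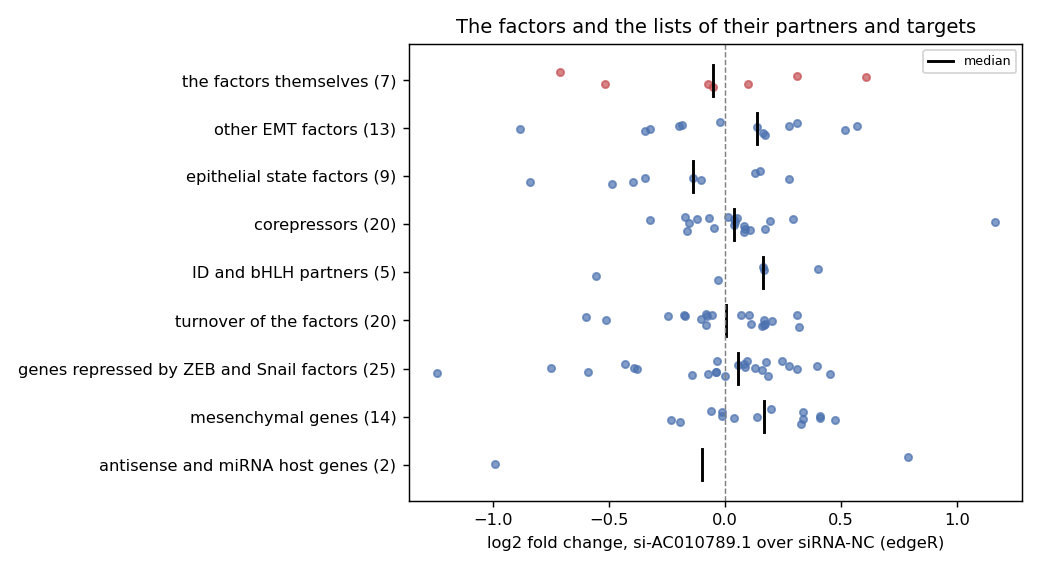
Log2 fold change, si-AC010789.1 over siRNA-NC, of the 7 tested factors (red) and of the tested genes of 8 related lists (blue), with the number tested in parentheses and the median as a black line. Points are genes, spread vertically for visibility. The medians of the lists lie between −0.14 and 0.17, and the median of the factors is −0.05. Single list genes lie between −1.24 and 1.16, and single factors between −0.71 and 0.61.

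The genes whose course over the 6 libraries was most like that of a factor were sought by the root mean square difference of log2 CPM, each gene centred on its own mean. For ZEB1 the closest among 13763 genes was AP005018.2, with a difference of 0.11, against a median of 0.44 over all genes. For ZEB2 it was ZNF234 at 0.09 (median 0.35), for SNAI1 PDSS1 at 0.02 (median 0.23), and for SNAI2 DNASE2 at 0.02 (median 0.18). For TCF3 it was ERVV-2 at 0.01 (median 0.24), for TCF4 SMIM13 at 0.07 (median 0.34), and for KLF4 ZNF286A at 0.11 (median 0.53). The next closest were AC016876.2, TINF2, FANCC, EPHB2, C17orf75, SNRPN and IGBP1P1, in the same order of factors. Since 6 libraries in 2 groups leave few distinct courses, these are descriptions of likeness.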

How the data were processed

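The authors deposited 1 table of raw counts per Ensembl transcript and library, without normalization, from paired-end TruSeq libraries sequenced on a NovaSeq instrument. The submitters' processing notes name CASAVA 1.8, TopHat2 2.0.6 and the builds GRCh38 and mm10 without their roles, and the study used Cuffdiff. The counting program is not given in the sources used here. Groups were taken from the sample titles. GENCODE v29 gave the gene of each transcript for the sums, and 83 unmatched transcripts (at most 0.0931% of a library) stayed out. Genes and transcripts were tested separately with edgeR 4.0.16 in R 4.3.3 (filterByExpr with minimum count 10 and minimum total 15, TMM, quasi-likelihood test, two-sided, Benjamini-Hochberg over all tested features), with DESeq2 1.42.0 as an alternative, and the fits were tested on simulated data. Library sizes were summed over tested features. A 3-count floor covers counting error only. Named were the 8 factors, transcripts with at least 10% of a factor's counts or an adjusted p under 0.05, each list's genes under that threshold and its 2 most abundant tested genes, and the 2 genes most like each factor; other genes were named after their values were seen. Members and lists were chosen with earlier results of these data known. Left out were promoters, since few members had one in the reference. The values of 1 list gene are not reported here.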

Additional observations from a re-analysis of the deposited data

How the results depend on the processing

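With RLE size factors, a minimum mean of 1 CPM, no filter, coding transcripts only or the replicate block, 0 factors and 0 list genes were called and no factor changed direction. DESeq2 called 1 factor, 8 list genes, 1 of the factors' transcripts (ENST00000590684, tested only through its high group), 522 genes and 675 transcripts. The 130 genes called became 69 without a filter and 56 with coding transcripts only, and the 6 transcripts became 0 without a filter. Leaving out 1 library gave 12 to 37 genes, 0 to 6 transcripts, 0 to 1 factors and 0 to 1 list genes, where 1 factor was KLF4 without the first si-AC010789.1 library and 1 list gene was SOX4 without the third. Directions turned, on the log2 scale, for ZEB2 (−0.26 to 0.25 with 1 library left out, lowest without si-AC010789.1 replicate 3), SNAI1 (−0.13 to 0.083, highest without si-AC010789.1 replicate 2, and 0.0062 without siRNA-NC replicate 1), its transcript ENST00000244050 (−0.14 to 0.069, highest without si-AC010789.1 replicate 2) and TCF4 transcript ENST00000636400 (−1.38 to 0.62, highest without siRNA-NC replicate 1). The cause was not tested.

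The labels number the libraries 1 to 3 in both groups. Deviations of same-numbered libraries correlated at 0.112, 0.0108 and 0.0167 across genes. Those of differently numbered libraries correlated at −0.0895 to 0.0792. So few values cannot decide whether the numbers pair the samples, and the main fits used the group only. With the replicate block 0 genes and 0 transcripts were called.

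GRHL2 had 0 to 2 counts per library, under the floor of 3 counts, so a difference was not detectable at this depth.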
